A study of Mus musculus with 9 samples.

Results

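The genes described here encode the subunits of potassium channels in mouse midbrain. They are the protein-coding genes whose symbol starts with Kcn, and 91 of the 94 annotated genes of that prefix were taken (3 were left out by the rule), out of 47729 gene rows in each count table. By channel class they were 40 voltage-gated, 13 inward rectifier, 14 two-pore and 8 calcium-activated pore-forming subunits and 16 auxiliary subunits. RNA was sequenced from dissected midbrain of mice aged 180 days in 3 genotypes, with 3 libraries each: controls or Dot1l(+/+), heterozygous mice or Dot1l(fl/+), and conditional knock-outs (cKO) or Dot1l(fl/fl). Every library pooled 3 mice. Every animal, controls included, carried 1 Cre knock-in allele at Pitx3, a gene of midbrain dopamine neurons, and the Rosa-lox-stop-lox-Yfp reporter on a C57/Bl6 background. Dot1l, the methyltransferase of lysine 79 of histone H3, had exon 5 floxed on 0, 1 or 2 alleles. The dissected block held many cells that never express Cre, and the whole-gene counts of Dot1l also cover the exons that stay, so they do not measure the deletion. Dot1l was at 80.2 to 85.2 CPM (counts relative to the TMM-scaled library total) in Dot1l(+/+), 60.6 to 84.2 in the heterozygous pools and 73.9 to 82.9 in the cKO pools.

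Potassium channels let potassium leave the cell and so set the resting potential, end the action potential and pace firing. Voltage-gated subunits open on depolarization, calcium-activated subunits produce the afterhyperpolarization, inward rectifiers and two-pore subunits hold the membrane near rest, and auxiliary subunits change the gating or surface number of the pores. In dopamine neurons, slow pacemaking is known to depend on A-type current, SK channels, ERG and M-type current, with brakes from GIRK and K-ATP channels. Astrocytes use inward rectifiers to clear potassium.

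The libraries held 16422135 to 28403218 counts, of which the potassium channel genes took 0.535 to 0.574%. TMM factors lay between 0.988 and 1.01. Markers of dopamine neurons were present in all libraries, and so were those of astrocytes, oligodendrocytes, microglia, vessels and GABA neurons, so the tissue was not dopamine neurons alone, although the tissue label names only these. Summed levels of 8 hypothalamic markers were 127.9 CPM in Dot1l(fl/+) replicate 1 and 61.5 in replicate 3, against 4.66 to 12.4 in the other 7 libraries. Summed levels of 8 choroid plexus markers reached 629 CPM in Dot1l(fl/+) replicate 3, against 54.8 to 198 in the others. The main counts that rest on Dot1l(fl/+) are therefore also given with its replicate 2 alone. That library itself stood farthest from its own group. The chi-square per degree of freedom between its counts and those of replicates 1 and 3 was 15.2 and 16.5. Other pairs of libraries within a genotype had 4.47 to 8.26. In these bulk pools, fewer cells of a type and less RNA per cell cannot be told apart, and p-values measure the spread between pools.

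Of the 91 genes, 77 passed the filter on low counts, namely 36 of 40 voltage-gated, 11 of 13 inward rectifier, 10 of 14 two-pore, 7 of 8 calcium-activated and 13 of 16 auxiliary genes. The 14 others were Kcna7, Kcna10, Kcnq1, Kcnv2, Kcnj1, Kcnj15, Kcnk7, Kcnk15, Kcnk16, Kcnk18, Kcnn4, Kcne1, Kcne3 and Kcnmb3. Among these, Kcnq1 is best known from heart and inner ear and Kcnj1 from kidney. Kcna7 and Kcnk18 had 0 counts in all 9 libraries, which allows up to 0.182 CPM in the shallowest of them (3 counts, covering counting error only).

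Per length of exon, the Dot1l(+/+) libraries were led by Kcnj10, the Kir4.1 rectifier of astrocytes, at 105 ± 3.61 RPKM (CPM per kilobase of exon, mean ± SD, n = 3). Kcnab2, a cytoplasmic beta subunit of Kv1 channels, followed at 86.8 ± 1.54 RPKM. The voltage-gated class, the largest with 36 of the 77 tested genes, had the highest summed level, 3251 of 5682 CPM over all channel genes. Its leading genes included Kcna2 at 40.1 ± 0.507, Kcnc1 at 33.9 ± 1.82 and Kcnc2 at 31.5 ± 0.427 RPKM, with Kcna2 above the other 2 in each library. Kcna2 makes an axonal Kv1 channel, and the Kcnc genes make the Kv3 channels of fast-firing neurons.

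Kcnj3, the GIRK1 subunit gated by G proteins, stood at 25.8 ± 1.4 RPKM and its partner Kcnj9 (GIRK3) at 22.5 ± 1.16. Among two-pore genes Kcnk1 stood apart at 35.7 ± 0.575 RPKM, above Kcnk2 (TREK1) at 7.99 ± 0.418 and Kcnk3 (TASK1) at 7.85 ± 0.354, which did not differ beyond their spread. The calcium-activated class was led by Kcnt1, a channel gated by sodium, at 13.8 ± 0.53 RPKM. Kcnn2 (SK2) at 5.44 ± 0.399, Kcnt2 at 3.96 ± 0.103, Kcnn3 (SK3) at 3.94 ± 0.275 and Kcnma1 (BK) at 3.76 ± 0.162 RPKM lay below it. Per length of the longest coding transcript Kcnn3 was at 14.3, Kcnn2 at 11.04 and Kcnt2 at 4.72 RPKM, so that Kcnn3 passed Kcnn2. Behind Kcnab2 the auxiliary genes Kcnab3, Kcnip2 and Kcnip4 had 28.3 ± 3.55, 25.1 ± 3.09 and 23.7 ± 0.104 RPKM, without a difference beyond their spread. With the length of the longest coding transcript in place of the exon union, 11 of the 15 top-3 places over the classes went to genes that hold one here.

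**Figure D1:**
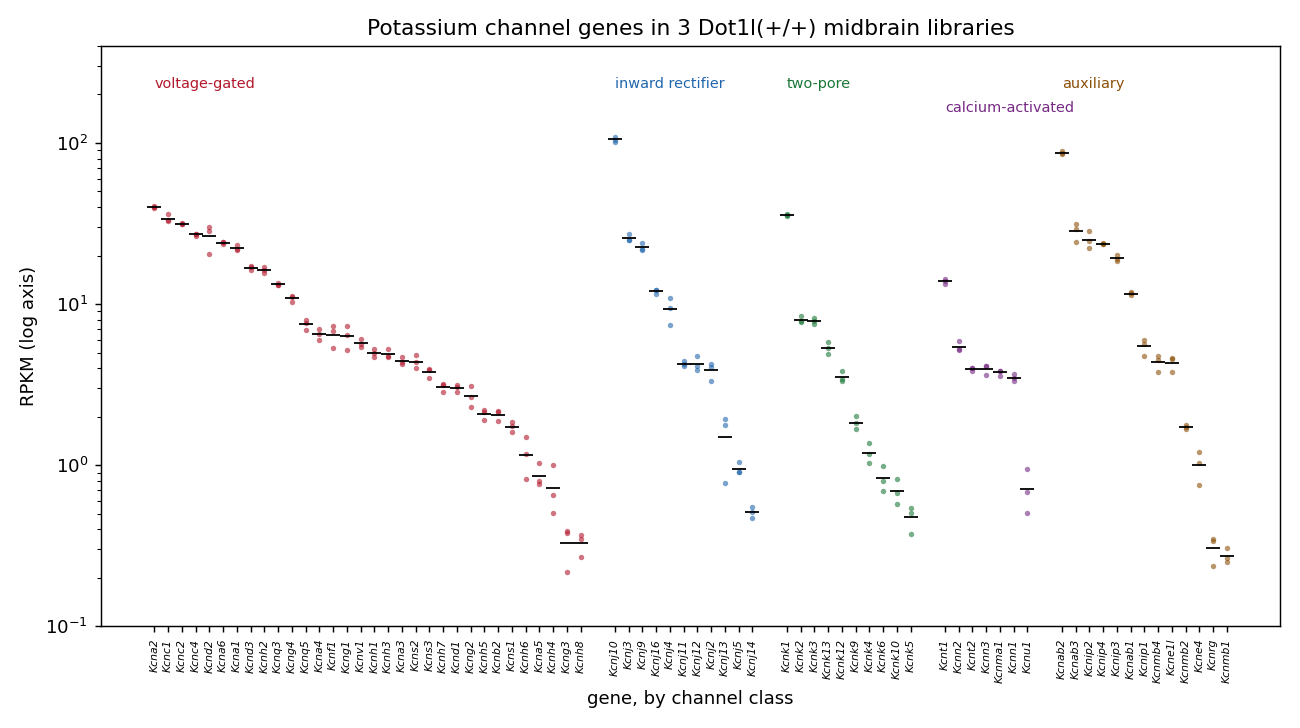
Level of 73 of the 77 tested potassium channel genes in the 3 Dot1l(+/+) libraries, as RPKM on a log axis, ordered within each class. Points are libraries and bars are means; Kcnj10 and Kcnab2 stand highest at 105 and 86.8 RPKM.

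Start-site windows (250 bases before to 50 after the start, RefSeq, GRCm38.p6) were matched for 66 of the 91 genes. The dinucleotide CG, which reads the same on both strands, occurred a median of 13.3 times in the windows of the 55 tested genes that had one, 6 times in those of 11 untested genes and 7 times over all 27025 genes of the table, 94.6% of which hold at least 1. Genes with several windows were averaged, and no test was made. Pairs of close relatives from opposite ends of the level range are shown with each CG in capitals. Kcna2 (chr3:107101317-107101616, + strand, 31 CG) and Kcna7 (chr7:45405710-45406009, + strand, 4 CG, 0 counts) are both Kv1 genes. Kcnj10 (chr1:172340960-172341259, + strand, 21 CG) and Kcnj1 (chr9:32393735-32394034, + strand, 2 CG, 1 count in 9 libraries) are both inward rectifiers. Of all genes in the table, 9.6% had at least as many CG as Kcna2 and 68.5% at least as many as Kcna7.
Kcna2: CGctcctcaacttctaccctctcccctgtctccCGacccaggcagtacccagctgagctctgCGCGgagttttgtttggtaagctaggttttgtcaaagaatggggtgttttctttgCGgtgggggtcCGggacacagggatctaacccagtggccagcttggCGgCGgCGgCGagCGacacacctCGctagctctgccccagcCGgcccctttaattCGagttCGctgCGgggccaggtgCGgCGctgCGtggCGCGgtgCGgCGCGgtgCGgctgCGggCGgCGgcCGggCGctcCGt
Kcna7: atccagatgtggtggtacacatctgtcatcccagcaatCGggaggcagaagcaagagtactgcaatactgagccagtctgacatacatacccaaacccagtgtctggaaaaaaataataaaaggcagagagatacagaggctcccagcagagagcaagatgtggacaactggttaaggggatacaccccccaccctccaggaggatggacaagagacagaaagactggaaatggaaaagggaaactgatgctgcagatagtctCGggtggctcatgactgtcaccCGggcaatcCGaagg
Kcnj10: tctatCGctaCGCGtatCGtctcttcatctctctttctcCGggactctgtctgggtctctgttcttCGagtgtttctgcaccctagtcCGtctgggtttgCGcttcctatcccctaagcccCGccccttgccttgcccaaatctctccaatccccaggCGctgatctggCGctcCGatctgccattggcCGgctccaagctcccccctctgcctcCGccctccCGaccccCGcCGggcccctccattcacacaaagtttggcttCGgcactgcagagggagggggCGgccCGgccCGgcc
Kcnj1: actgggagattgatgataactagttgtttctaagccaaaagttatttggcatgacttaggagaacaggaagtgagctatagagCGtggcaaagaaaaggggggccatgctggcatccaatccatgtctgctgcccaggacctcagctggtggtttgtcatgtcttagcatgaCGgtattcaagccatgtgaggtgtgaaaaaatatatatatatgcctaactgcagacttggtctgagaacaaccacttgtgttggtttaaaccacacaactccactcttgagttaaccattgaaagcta

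The first question was whether 1 floxed allele goes with other channel levels. Differences between Dot1l(fl/+) and Dot1l(+/+) were small. Over the 77 tested genes 30 were higher and 47 lower, and their log2 fold changes had a median of −0.02, where all 17671 tested genes had a median of −0.0034 and 48.9% higher. In edgeR, 0 of the 77 reached an adjusted p of 0.05, as did 0% of all genes, and DESeq2 also called 0. The lowest edgeR adjusted p of a channel gene was 0.54. At an unadjusted edgeR p under 0.05, 2 of 77 were higher (2.6%, against 4.3% of all genes) and 5 were lower (6.49%, against 4.09%), and DESeq2 gave 6 in all. The 3 libraries of Dot1l(fl/+) lay entirely above those of Dot1l(+/+) in 5 genes (6.49%, against 6.84% of all genes) and entirely below in 6 (7.79%, against 6.47%). These shares were close to the background. With Dot1l(fl/+) replicate 2 alone, 40 of 77 were lower, and 4 higher and 15 lower genes had a p under 0.05. Without the filter on low counts, 1 channel gene (Kcnj3) passed the adjusted threshold, and with Dot1l(fl/+) replicate 2 alone 3 did (Kcnj10, Kcnj16 and Kcnq3).

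By class, the voltage-gated genes leaned to lower levels in Dot1l(fl/+), with 26 of 36 lower and a class median of −0.05 on the log2 scale. Without Dot1l(+/+) replicate 3 the count was 17 of 36 and the median 0.02, and without Dot1l(fl/+) replicate 2 it was 19 of 36, whereas with that replicate alone it was 22 of 36. With a length and GC offset it was 19 of 36 as well, and over all 77 genes the median turned to 0.0066. The channel genes were longer and richer in GC than the other tested genes, with medians of 4557 exon bases and 52.4% GC against 3972.5 bases and 49.8% over all tested genes. Some extremes of the classes lay outside the genes at an unadjusted p under 0.05. Kcnh4 had a log2 fold change of −0.23 (SE 0.29), Kcnk6 one of 0.13 (SE 0.22) and Kcnu1 one of 0.27 (SE 0.21). These rested on single libraries, with 0.10 for Kcnh4 without Dot1l(+/+) replicate 3, −0.01 for Kcnk6 without Dot1l(fl/+) replicate 3 and 0.09 for Kcnu1 without Dot1l(+/+) replicate 1. The inward rectifiers split into 6 higher and 5 lower, the two-pore genes into 3 and 7, the calcium-activated genes into 3 and 4, and the auxiliary genes into 8 and 5.

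**Figure D2:**
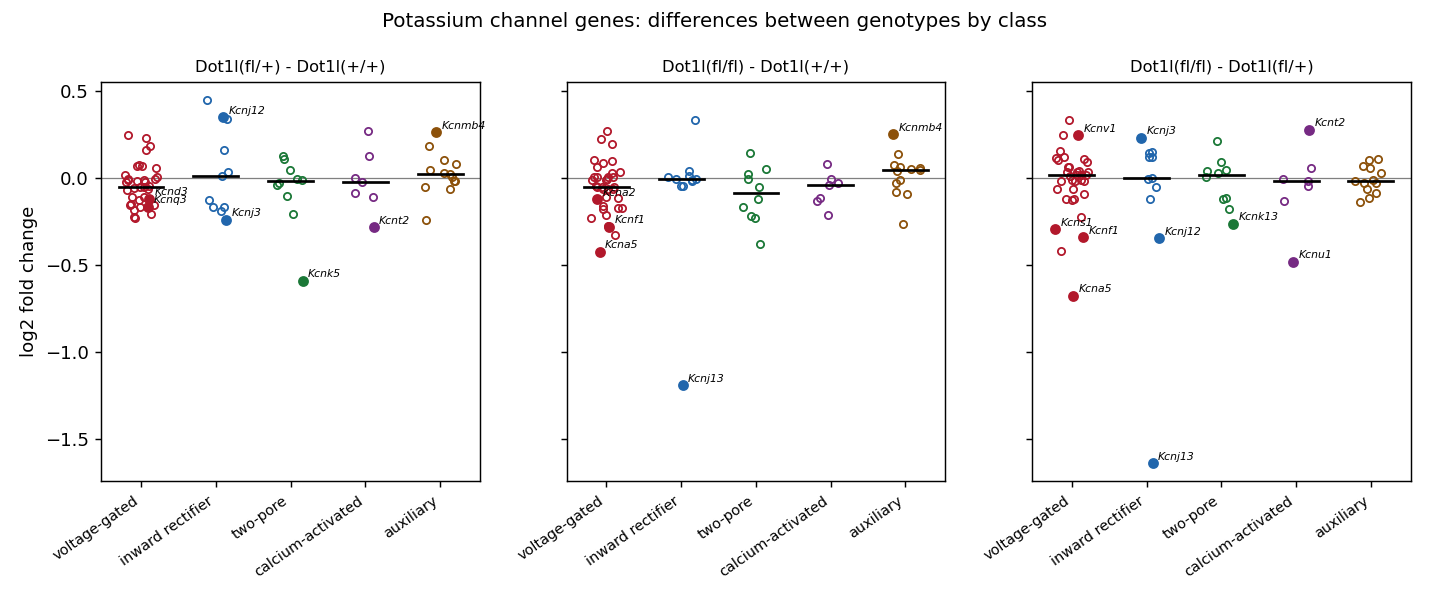
Log2 fold change of the 77 tested potassium channel genes by class in the 3 comparisons. Filled, named points have an unadjusted edgeR p under 0.05 and black bars are class medians, which lie between −0.083 and 0.05; no point passes an adjusted p of 0.05.

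Kcnj3 (ENSMUSG00000026824, chr2:55435970-55598145, GRCm38) had the lowest p of the channel genes. It was at 129.9, 130.4 and 142.8 CPM in Dot1l(+/+), 119.5, 111.6 and 110.9 in the heterozygous pools and 138.2, 135.1 and 128.7 in the cKO pools. All Dot1l(fl/+) libraries lay below all others, and the other 2 genotypes overlapped. The log2 fold change against Dot1l(+/+) was −0.24 (SE 0.05, edgeR adjusted p = 0.54) in the heterozygous pools and 0.00 in the cKO pools, and that of Dot1l(fl/fl) against Dot1l(fl/+) was 0.23 (edgeR adjusted p = 0.53). With 1 library left out the first value ran from −0.27 to −0.19. Of the exon bases of Kcnj3, 31.1% overlap Gm26794 on the other strand. The counting is not stated to use strand, so reads of such a pair cannot be told apart.

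Kcnt2 (ENSMUSG00000052726, chr1:140246158-140612067), a sodium-activated channel, followed the same order. Its levels were 27.8, 26.5 and 27.7 CPM in Dot1l(+/+), 23.9, 24.0 and 19.5 in the heterozygous pools and 26.1, 29.7 and 26.0 in the cKO pools. Again the Dot1l(fl/+) libraries lay apart and below. The log2 fold change against Dot1l(+/+) was −0.28 (SE 0.09, edgeR adjusted p = 0.54), and −0.12 with the length and GC offset. Kcnj12 (Kir2.2, ENSMUSG00000042529, chr11:61022564-61071131) went the other way, with 11.3, 13.1 and 10.7 CPM in Dot1l(+/+), 16.4, 13.3 and 15.1 in the heterozygous pools and 12.8, 11.3 and 11.1 in the cKO pools. Here all 3 Dot1l(fl/+) libraries lay above the rest. The log2 fold change was 0.35 (SE 0.11, edgeR adjusted p = 0.54) and stayed between 0.28 and 0.44 with 1 library left out, but was 0.18 with Dot1l(fl/+) replicate 2 alone.

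The other 4 genes with an unadjusted p under 0.05 in this comparison were Kcnd3, Kcnq3, Kcnmb4 and Kcnk5. Kcnd3 (Kv4.3, the A-type pore of dopamine neurons) was at 155 to 164 CPM in Dot1l(+/+) and 143 to 153 in Dot1l(fl/+), with no overlap and a log2 fold change of −0.12 (SE 0.05, edgeR adjusted p = 0.54). Kcnq3, a pore subunit of the M current, was at 193.8, 152.6 and 175.1 CPM in Dot1l(fl/+) and 193 to 198 in Dot1l(+/+). Its log2 fold change of −0.17 moved to −0.08 without Dot1l(fl/+) replicate 2 and to −0.10 with the length and GC offset. Kcnmb4, the neuronal BK beta subunit, was at 12.7 to 15.8 CPM in Dot1l(+/+) and 16.2 to 18.4 in Dot1l(fl/+), without overlap, and 31.5% of its exon bases overlap antisense transcripts. Its log2 fold change was 0.26 (SE 0.12), and 0.18 with the length and GC offset. Kcnk5 was low in level, at 1.28 to 1.84 CPM in Dot1l(+/+) and 0.979 to 1.18 in Dot1l(fl/+), a log2 fold change of −0.59 (SE 0.24).

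**Figure D3:**
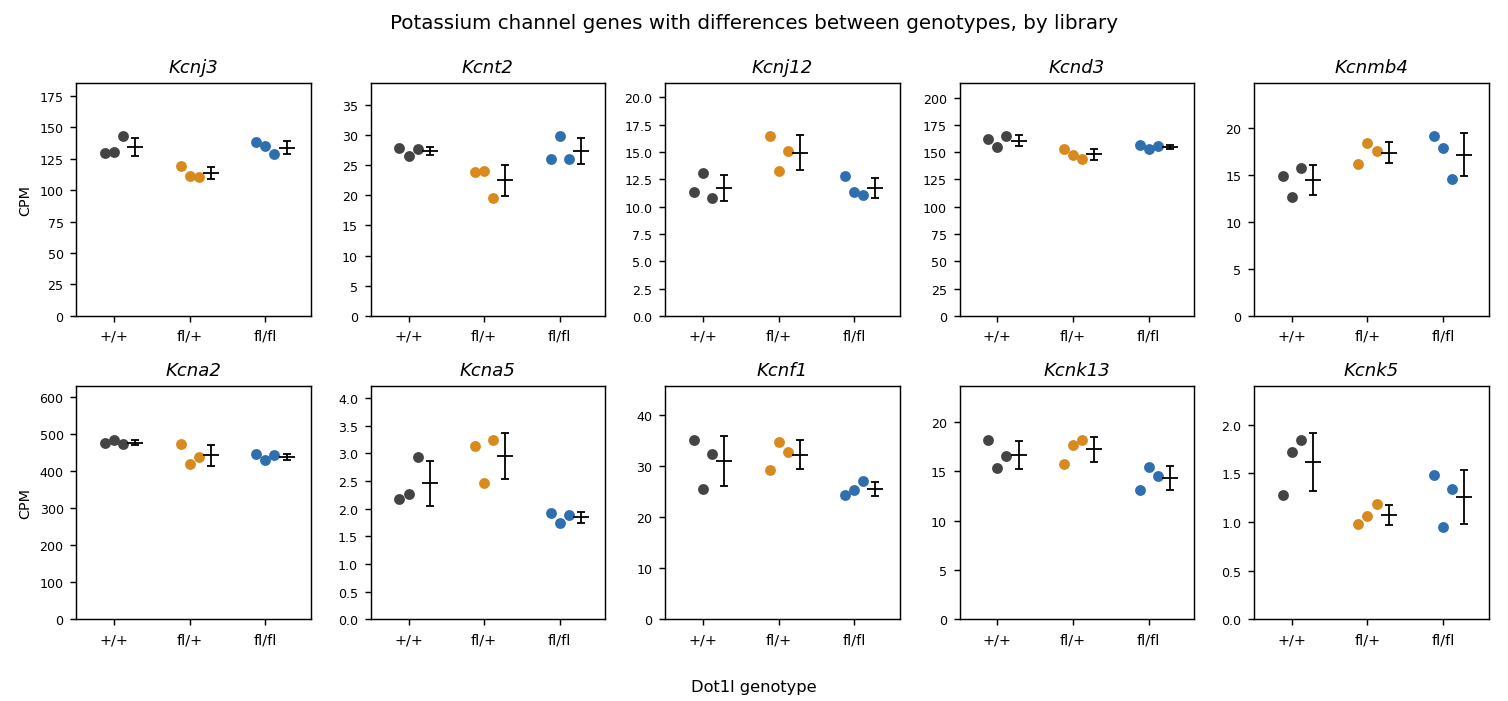
Level in CPM of 10 potassium channel genes in each of the 9 libraries, from 0 upward; dots are libraries in replicate order and bars are mean ± SD (n = 3). In Kcnj3 and Kcnt2 the Dot1l(fl/+) libraries lie below the other genotypes and in Kcnj12 above, while in Kcna5 the Dot1l(fl/fl) libraries lie below.

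The second question was the effect of 2 floxed alleles. Between Dot1l(fl/fl) and Dot1l(+/+), 29 of 77 genes were higher and 48 lower, and their log2 fold changes had a median of −0.01 against 0.0009 over all genes, of which 50.4% were higher. With the length and GC offset the median was 0.0049 and 36 of 77 were lower. In edgeR 0 channel genes passed an adjusted p of 0.05, as did 0% of all genes (DESeq2 called 0 channel genes too), and the lowest edgeR adjusted p was 0.999. At an unadjusted p under 0.05, 1 gene was higher (1.3%, against 2.21% of all genes) and 4 were lower (5.19%, against 1.72%), and DESeq2 gave 4 in all. This balance turned to 4 higher and 1 lower without Dot1l(+/+) replicate 3 and to 4 higher and 2 lower without Dot1l(fl/fl) replicate 3, and without Dot1l(fl/fl) replicate 1 the count was 0. In 0 genes did the Dot1l(fl/fl) libraries lie entirely above Dot1l(+/+) (5.03% of all genes), and in 6 they lay entirely below (7.79%, against 5.25%). These 6 were Kcna2, Kcna5, Kcnh5, Kcnh7, Kcnq3 and Kcnk12. Kcnh5, Kcnh7 and Kcnk12 were named after their values were seen. Without the low-count filter 1 gene (Kcnj13) passed the adjusted threshold.

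Of these 6, 5 are voltage-gated, a class in which 23 of 36 genes were lower (19 with the length and GC offset and 20 without Dot1l(+/+) replicate 3) with a median of −0.05, which moved to −0.02 under each of these settings. The 5 of 36 stand against the 5.25% of all genes. Lower genes also outnumbered higher ones among the two-pore (7 of 10, median −0.08), calcium-activated (6 of 7, median −0.04) and inward rectifier genes (7 of 11, median −0.01). Kcna2 was at 474.5, 483.8 and 472.6 CPM in Dot1l(+/+) and 445.0, 429.5 and 442.2 in Dot1l(fl/fl). The log2 fold change was −0.12 (SE 0.05, edgeR adjusted p = 0.999), and −0.07 with the length and GC offset. Kcna5 (Kv1.5) was at 2.18, 2.28 and 2.93 CPM in Dot1l(+/+), 3.13, 2.47 and 3.24 in the heterozygous pools and 1.92, 1.74 and 1.88 in the cKO pools, with a log2 fold change of −0.42 (SE 0.19, edgeR adjusted p = 0.999) against Dot1l(+/+). The Dot1l(fl/fl) libraries were the lowest of the 9, and without Dot1l(+/+) replicate 3 the value moved to −0.27. Kcnf1, a silent Kv subunit, was at 35.1, 25.5 and 32.3 CPM in Dot1l(+/+) and 24.3, 25.2 and 27.1 in Dot1l(fl/fl), where 1 control library fell among the mutants. Its log2 fold change of −0.28 (SE 0.11) moved to −0.18 without Dot1l(+/+) replicate 1. In the other direction Kcng3 had 0.27 (SE 0.26), Kcnj14 0.34 (SE 0.27), Kcnk4 0.14 (SE 0.16) and Kcnn1 0.08 (SE 0.08). Without Dot1l(+/+) replicate 2 the values of Kcng3 and Kcnk4 were both 0.05, and without Dot1l(fl/fl) replicate 3 that of Kcnj14 was 0.02. Kcnmb4 was the 1 higher gene at an unadjusted p under 0.05, at 19.1, 17.8 and 14.6 CPM in Dot1l(fl/fl), with a log2 fold change of 0.25 (SE 0.12).

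Set against Dot1l(fl/+), the Dot1l(fl/fl) libraries had 39 genes higher and 38 lower, and the median difference was 0.0029 on the log2 scale (0.0015 over all genes, 50.5% higher). Again 0 channel genes passed an adjusted p of 0.05 in edgeR or DESeq2, and 0% of all genes did in edgeR. At an unadjusted edgeR p under 0.05, 3 were higher (3.9%, against 3.6% of all genes) and 7 lower (9.09%, against 2.87%), and DESeq2 gave 9 in all. This balance turned to 9 higher and 6 lower with Dot1l(fl/+) replicate 2 alone, and to 8 higher and 7 lower without that library. Libraries did not overlap in 3 higher genes (3.9%, against 5.98%) and 9 lower ones (11.7%, against 5.14%). The higher genes at that p were Kcnj3, Kcnt2 and Kcnv1. The lower ones were Kcnj12, Kcnj13, Kcna5, Kcnf1, Kcns1, Kcnk13 and Kcnu1. This comparison shares its libraries with both others, so the return of Kcnj3, Kcnt2 and Kcnj12 to the Dot1l(+/+) level is not separate evidence. Kcna5 had a log2 fold change of −0.67 (SE 0.19, edgeR adjusted p = 0.6) and Kcnf1 one of −0.34 (SE 0.11, edgeR adjusted p = 0.68), each with no overlap. Kcnv1, a silent Kv subunit, was at 33.6, 32.0 and 25.8 CPM in Dot1l(fl/fl) and 22.8, 29.3 and 25.3 in Dot1l(fl/+), which overlapped. Kcns1, another silent subunit, was at 4.40 to 4.73 CPM in Dot1l(fl/fl), below the 5.27 to 5.94 of Dot1l(fl/+), and Kcnu1 (the SLO3 channel, known from sperm) at 2.00 to 2.6 CPM, below 2.98 to 3.68. Without the low-count filter 3 genes (Kcnf1, Kcnj13 and Kcnj3) passed the adjusted threshold, and with Dot1l(fl/+) replicate 2 alone 3 did (Kcnj10, Kcnj16 and Kcnq3).

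A list of 16 channel genes with a known part in dopamine neuron firing was taken next. In Dot1l(fl/fl), 15 of 16 were lower than in Dot1l(+/+), against 49.6% of all genes, but the median log2 fold change was −0.05 and 1 of the 16 (Kcna2, lower) had an unadjusted p under 0.05, against 1.72% of all genes. The values ran from −0.16 for Kcnk9 (TASK3) to 0.04 for Kcnj5 (GIRK4), and moved to −0.09 for Kcnk9 without Dot1l(+/+) replicate 1 and to −0.04 for Kcnj5 without Dot1l(fl/fl) replicate 3. With the length and GC offset 11 of 16 were lower, and with 1 library left out 13 or 15. In Dot1l(fl/+) 11 of 16 were lower (12 with its replicate 2 alone), against 51.1% of all genes, with a median of −0.04, and with 1 library left out 9 to 15 were. The offset brought the Dot1l(fl/fl) median to −0.028, and in Dot1l(fl/+) it left 9 of 16 lower with a median of −0.0032. Over the same libraries the dopamine neuron markers were lower in 10 of 10 genes in Dot1l(fl/fl), by a median log2 fold change of −0.54, with 8 at an unadjusted p under 0.05 (1.72% of all genes), and their summed level was 630 to 696 CPM in Dot1l(+/+), 491 to 640 in the heterozygous pools and 478 to 509 in the cKO pools. None of the 10 markers was at 0. The part of this in the channel values was not tested.

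Among these genes, Kcnn3, the SK channel that steadies pacemaking, was at 42.8, 37.9 and 42.9 CPM in Dot1l(+/+), 42.8, 39.5 and 41.4 in the heterozygous pools and 39.1, 35.4 and 38.6 in the cKO pools. Its Dot1l(fl/fl) libraries lay below Dot1l(fl/+) but overlapped Dot1l(+/+), and the log2 fold change against Dot1l(+/+) was −0.13 (SE 0.07), or −0.08 without Dot1l(fl/fl) replicate 2. Kcnj11, the pore of the K-ATP channel, was at 16.3, 15.7 and 15.1 CPM in Dot1l(+/+) and 13.5, 14.6 and 13.8 in Dot1l(fl/+), without overlap, and 14.9, 14.1 and 16.8 in Dot1l(fl/fl). Kcnh2 (ERG1) had log2 fold changes of 0.01 in heterozygous and −0.11 in cKO pools, and Kcns3, a silent Kv subunit, of −0.15 and −0.16. The cKO value of Kcnh2 moved to −0.03 without Dot1l(fl/fl) replicate 2. The heterozygous value of Kcns3 ran from −0.27 to −0.06 with 1 library left out (Dot1l(fl/+) replicates 2 and 1) and was 0.07 with replicate 2 alone. For Kcnip4, the Kv4 partner in dopamine neurons, the heterozygous and cKO values were −0.06 and −0.03, and for Kcnma1 −0.02 and −0.04. Kcnj9 had 0.03 and −0.01, and Kcnk3 had 0.00 and −0.12. With the length and GC offset the heterozygous values turned to 0.01 for Kcnip4 and 0.04 for Kcnma1. The cKO value of Kcnma1 turned to 0.02 with the offset and to 0.03 without Dot1l(fl/fl) replicate 2.

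**Figure D4:**
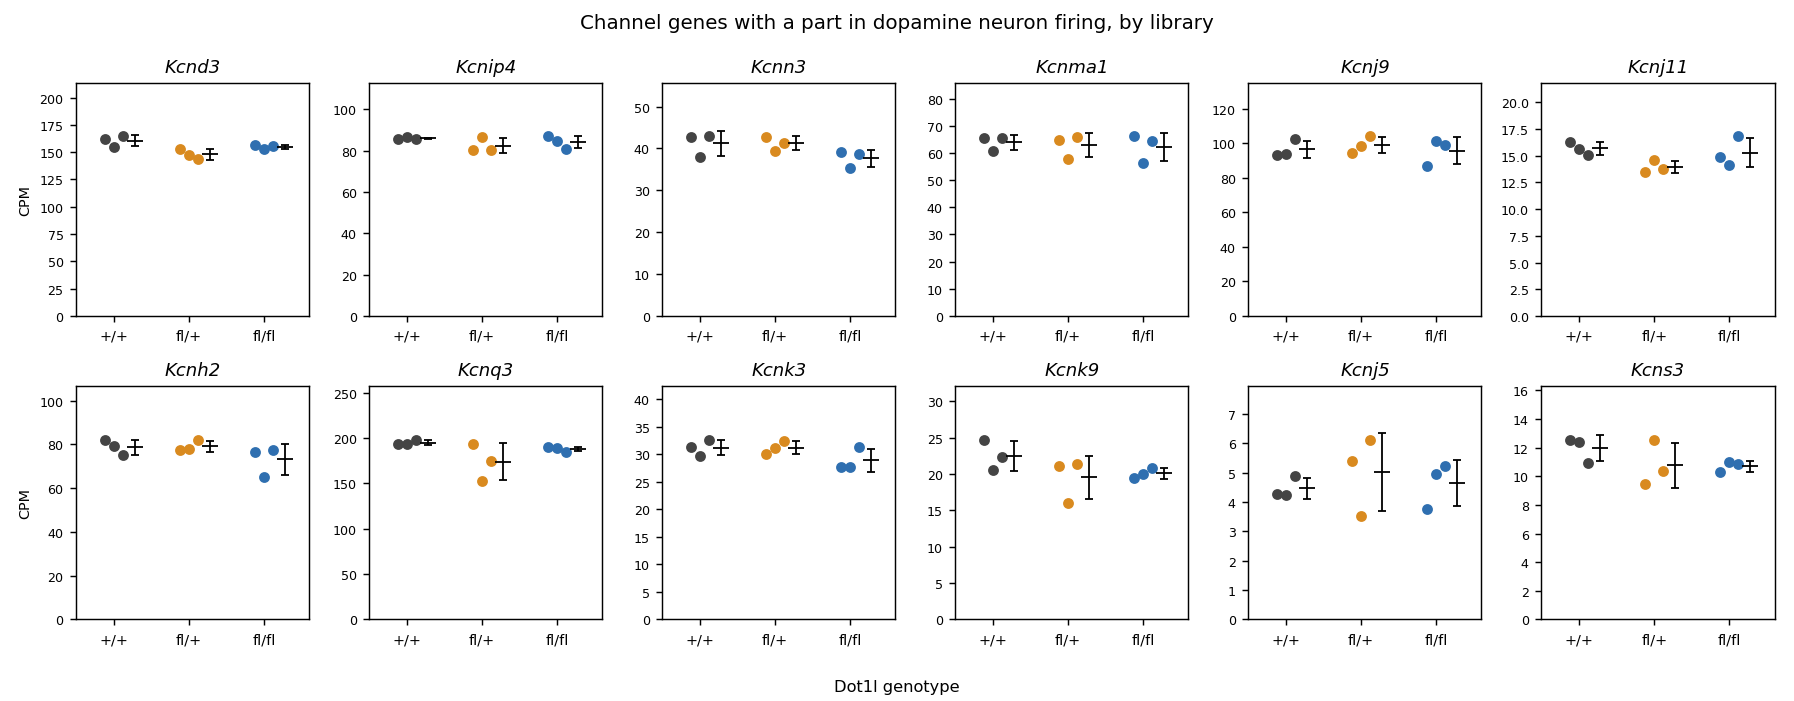
Level in CPM of 12 of the 16 channel genes with a part in dopamine neuron firing, by library and from 0 upward; dots are libraries in replicate order and bars are mean ± SD (n = 3). Kcnn3, for one, lies at 35.4 to 42.9 CPM over the 9 libraries.

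Among channels known from other cells of the tissue, the rectifiers Kcnj10, Kcnj16 and Kcnj13 varied with single libraries. Kcnj10 was at 565, 590 and 551 CPM in Dot1l(+/+), 574, 422 and 565 in the heterozygous pools and 569, 556 and 574 in the cKO pools, so that Dot1l(fl/+) replicate 2 alone was low. Its astrocyte partner Kcnj16 was at 34.1 CPM in that library and 43.0 to 48.4 in the other 8. The log2 fold change of Kcnj10 in Dot1l(fl/+) was −0.13 with all libraries, 0.0027 without replicate 2 and −0.43 with replicate 2 alone. The summed level of 8 astrocyte markers in the same library was 3773.5 CPM, inside the range of 3231.7 to 3934.7 in the others, and none of these markers was at 0. Of the single markers, Gfap (394 CPM), Aldh1l1 (64.4) and Gjb6 (69.5) were highest in that library and Sox9 (40.9) lowest.

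Kcnj13 (Kir7.1, ENSMUSG00000079436, chr1:87386363-87394729), a rectifier of choroid plexus epithelium, was at 2.46, 0.988 and 2.25 CPM in Dot1l(+/+), 1.25, 1.84 and 4.69 in the heterozygous pools and 0.6, 1.23 and 0.607 in the cKO pools. It was highest in the library with the most choroid plexus RNA. The marker sums were 177, 82.3 and 164 CPM in Dot1l(+/+), 138, 198 and 629 in the heterozygous pools and 61.7, 54.8 and 59.2 in the cKO pools, and 8 of 8 markers were lower in Dot1l(fl/fl) than in Dot1l(+/+). The log2 fold change of Kcnj13 in Dot1l(fl/+) was 0.45 (SE 0.44), and −0.29 without replicate 3. In Dot1l(fl/fl) it was −1.19 (SE 0.52, edgeR adjusted p = 0.999), and against Dot1l(fl/+) −1.64 (SE 0.5, edgeR adjusted p = 0.64), which moved to −0.90 without Dot1l(fl/+) replicate 3. Of its exon bases, 49.1% overlap Gigyf2 on the other strand. The part of the choroid plexus RNA in these values was not tested.

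**Figure D5:**
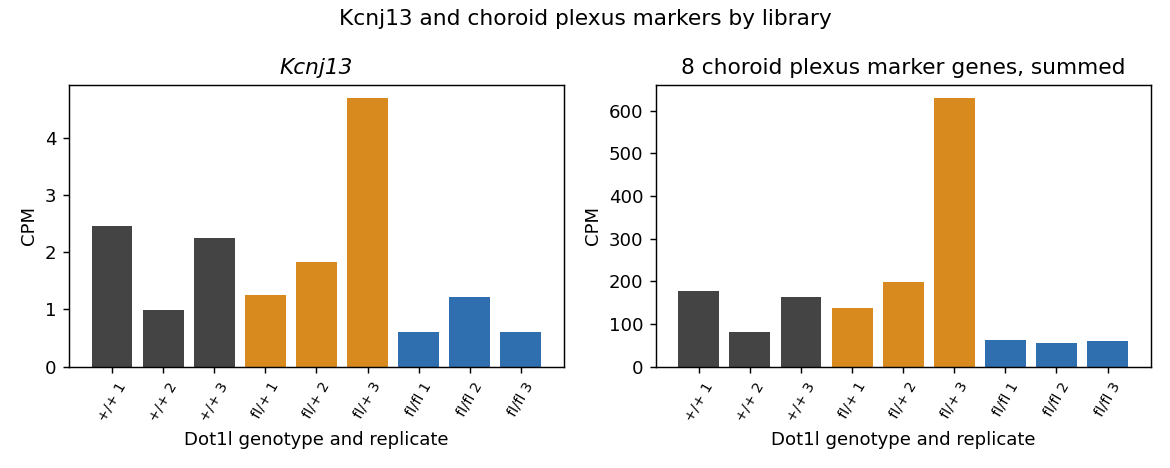
Kcnj13 (left) and the summed level of 8 choroid plexus markers (right) in CPM, 1 bar per library, from 0 upward. Dot1l(fl/+) replicate 3 is highest in both, at 4.69 and 629 CPM.

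Kcnk13 (THIK1), the resting potassium channel of microglia, was at 18.2, 15.3 and 16.5 CPM in Dot1l(+/+), 15.7, 17.7 and 18.2 in the heterozygous pools and 13.1, 15.5 and 14.5 in the cKO pools. The Dot1l(fl/fl) libraries lay below those of Dot1l(fl/+) and overlapped Dot1l(+/+), with a log2 fold change of −0.22 (SE 0.1) against Dot1l(+/+). Over the same libraries 7 of 8 microglial markers were higher in Dot1l(fl/fl), with sums of 385 to 414 CPM against 351 to 368 in Dot1l(+/+). Log2 fold changes in Dot1l(fl/+) and Dot1l(fl/fl) were −0.05 and −0.06 for Kcnc1 and −0.01 and 0.01 for Kcnc2, both Kv3 genes of fast-firing neurons. With Dot1l(fl/+) replicate 2 alone the values were −0.23 for Kcnc1 and −0.11 for Kcnc2, and with 1 library left out that of Kcnc1 ran from −0.11 to 0.04. Kcnk1 had −0.04 and 0.06, and Kcnk2 −0.02 and 0.02. The heterozygous value of Kcnk1 was 0.09 with Dot1l(fl/+) replicate 2 alone and −0.11 without it. That of Kcnk2 ran from −0.09 to 0.08 with 1 library left out.

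Auxiliary subunits were the class with the largest share of genes higher in Dot1l(fl/fl) than in Dot1l(+/+), 8 of 13 (61.5%) with a median log2 fold change of 0.05. Kcnip2, a Kv4 partner, was at 85.7, 77.5 and 98.8 CPM in Dot1l(+/+) and 94.0, 108 and 86.3 in Dot1l(fl/fl), which overlapped. Kcnmb1, the BK beta subunit of smooth muscle, was at 1.05 to 1.28 CPM in Dot1l(+/+) and 0.97 to 1.16 in Dot1l(fl/fl), and Kcne1l had a log2 fold change of −0.14 (SE 0.13) between Dot1l(fl/fl) and Dot1l(fl/+). Kcnab2, the most abundant of the class, had log2 fold changes of 0.05 in heterozygous and −0.01 in cKO pools, and Kcnab3 of 0.01 and −0.08. With 1 library left out the heterozygous value of Kcnab2 ran from −0.02 to 0.11, and it was 0.18 with Dot1l(fl/+) replicate 2 alone. Those of Kcnab3 ran from −0.09 to 0.09 in heterozygous and from −0.18 to 0.00 in cKO pools with 1 library left out. Beyond the subunits, 26 partner genes of potassium channels (such as Dpp6 and Dpp10 of Kv4, Abcc8 and Abcc9 of K-ATP, and the scaffolds Cntnap2 and Lgi1) were listed. Of these, 24 were tested, with 10 higher and 14 lower in the heterozygous pools and 13 and 11 in the cKO pools, medians of −0.0083 and 0.011, and 1 higher gene in each with an unadjusted p under 0.05 (4.3% and 2.21% of all genes).

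The precision was limited by level. The standard error of the log2 fold change between Dot1l(fl/+) and Dot1l(+/+) had a median of 0.101 over the 77 genes and ran from 0.045 to 0.442, and for the 45 genes above a mean of 20 CPM it stayed at or below 0.164. For most of the genes a difference of a few percent was not detectable at this depth and number of pools. Larger differences could also miss the adjusted threshold. Of the dopamine neuron markers, Slc6a3 had a log2 fold change of −0.68 in Dot1l(fl/fl) against Dot1l(+/+), with an edgeR adjusted p of 0.091.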

How the data were processed

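Directional libraries were sequenced on a NextSeq and aligned by the authors with GRCm38.p4 as genome, and unnormalized counts for each Ensembl gene were deposited. The submitters' processing notes name bcl2fastq 2.17, Trimmomatic 0.30 and DESeq2 1.10.1, and the aligner, counter and strand setting are not given in the sources used here. The authors' own DESeq2 comparisons (fold changes and p-values) were not used. The series text speaks of sorted embryonic cells, whereas the library labels give 180 days and dissection (of midbrain dopamine neurons), and the labels were followed for age and dissection. Symbols, lengths and coordinates came from GENCODE M21.

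Counts were tested with edgeR 4.0.16 in R 4.3.3 by the quasi-likelihood test in 1 fit of all 9 libraries (TMM, filterByExpr, genotype only), with Benjamini-Hochberg adjustment over 17671 genes. DESeq2 1.42.0 was an alternative. Fold changes are on the log2 scale, and the standard error is the fold change divided by the root of the F statistic. The common biological coefficient of variation was 8.81%. Figures were drawn with matplotlib 3.10.9. The genes, lists and tests were chosen with earlier results of these data known. The genes named are those of a list of known dopamine-neuron and other cell channels, the top 3 of each class by level, those with an unadjusted p under 0.05, and the largest rise and fall of each class among genes with a mean of at least 1 CPM. Results of 4 tested genes that this rule also names are not reported here singly.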

Additional observations from a re-analysis of the deposited data

How the results depend on the processing

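No channel gene passed an adjusted p of 0.05 except without the low-count filter and with Dot1l(fl/+) replicate 2 alone, and some fold changes of single genes changed sign, Kcnj10, Kcnj13, Kcnh4 and Kcnj5 in Dot1l(fl/+) among them. Depth and 3 pools per genotype limit what could be seen, as do tissue from neighbouring regions and cells without Cre. The cause of the moves below was not tested. Genes called over the whole table, 0 in each comparison, became 3 (Dot1l(fl/+) against Dot1l(+/+)), 3 (Dot1l(fl/fl) against Dot1l(+/+)) and 14 (Dot1l(fl/fl) against Dot1l(fl/+)) with DESeq2, and 251, 118 and 164 without the filter. With only the genotypes compared they were 1 and 4 in the first and second comparison. With 1 library left out they ran from 0 to 5, 0 to 4 and 0 to 12. The alternative of Dot1l(fl/+) replicate 2 alone, chosen after seeing the data, gave 247 and 189 genes in the comparisons with Dot1l(fl/+), where the lone library is assumed to vary like the other groups.

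Channel genes at an unadjusted p under 0.05, main counts 7, 5 and 10, were 12 without the filter and 19 with replicate 2 alone in the first comparison, and 8 in the second with only the 2 genotypes. Leaving out 1 library gave 4 to 11, 0 to 7 and 6 to 15, with 4 when Dot1l(+/+) replicate 1 was absent, 11 and 15 when Dot1l(fl/+) replicate 2 was, and 0 when Dot1l(fl/fl) replicate 1 was. The median log2 fold change of the channel genes turned to 0.00658 and 0.004868 in the first and second comparison with the length and GC offset, and ran from −0.04137 to 0.002191, −0.03253 to −0.01289 and −0.01489 to 0.02259 with 1 library left out. The number of channel genes detected was 76 in place of 77 with 10 counts in every library or a mean of 1 CPM in controls.

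By the study's methods the pools were built from nest-matched sets of the 3 genotypes, but no source used here ties the replicate numbers to those sets. Deviations of same-numbered libraries correlated at 0.022 to 0.317, over 0.1 in 6 of 9 pairs, and 6 of 9 libraries were closest to their own number in both other genotypes. The fit with the replicate block called 3 genes in the second and 3 in the third comparison. In the second, 3 channel genes, 0 higher and 3 lower, had an unadjusted p under 0.05, Kcnmb4 and Kcna5 no longer among them. In the first, 9 channel genes had that p, 2 higher and 7 lower, against 7 in the main fit. In the third, 11 had it, 3 higher and 8 lower, against 10. The block with the length and GC offset called 3 and 4 genes, left 4 and 3 channel genes at that p in the first and second comparison, and gave medians of 0.006958 and 0.004566. Among fold changes of single named genes, 2490 of 2544 values under the alternatives kept their direction and side of the threshold.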

Other observations

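Some potassium channel genes lie side by side in the genome, and neighbours differed in level by unequal amounts. In the Dot1l(+/+) libraries Kcna1 and Kcna6, 61.9 kb apart on chromosome 6, were at 22.4 ± 0.758 and 24.0 ± 0.387 RPKM (mean ± SD, n = 3), a ratio of 1.08, although 39.6% of the exon bases of Kcna6 overlap Gm26673 on the other strand. Kcna2 and Kcna3, 63.1 kb apart on chromosome 3, were at 40.1 ± 0.507 and 4.42 ± 0.243 RPKM, and Kcna10, 68 kb beyond Kcna2, did not pass the filter on low counts. Kcnj10 was 4.67 times Kcnj9, which lies 11.9 kb away on chromosome 1, and Kcnj16 was 3.1 times Kcnj2, which lies 38.2 kb away on chromosome 11. No test was made of these values.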
